A study of Mus musculus with 4 samples.

Results

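The genes described here are 9 receptor and granule genes of natural killer (NK) cells that killer T cells also use: Klrk1, Klrd1, Klrc1, Klrc2, Klre1, Klrg1, Klrb1c, Ncr1 and Nkg7. They were picked by gene symbol, and all 9 were found among the 21959 genes listed in each of 2 tables, one for dendritic cells (DCs) and one for CD3+ T cells. Both cell types came from MC38 tumours, a transplanted mouse colon carcinoma. The mice were given X-Ray+O-IMDQ, a prodrug that radiotherapy activates according to the series, or PBS, with collection 72 h after treatment number 2. This gave 4 groups with 1 library each: DCs and T cells after X-Ray+O-IMDQ (here "treated"), and DCs and T cells after PBS. Strain, age, number of animals per library and sorting gates are not given in the sources used here, and no library of X-ray alone or prodrug alone was analysed here. With 1 library a group, values compare libraries and not conditions, and no p-value is given.

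NK-type receptors let killer lymphocytes weigh signals that start killing against signals that stop it. Klrk1 encodes NKG2D, an activating receptor for stress-induced ligands, which signals through the adaptors DAP10 (Hcst) and DAP12 (Tyrobp). Klrd1 encodes CD94, which pairs with NKG2A (Klrc1) into an inhibitory receptor or with NKG2C (Klrc2) into an activating one, and both pairs bind Qa-1, encoded by H2-T23. In CD8+ T cells these receptors appear with activation and effector differentiation, and NKG2A can restrain T cells in tumours. Klrb1c (NK1.1) and Ncr1 (NKp46) are used to mark NK cells themselves. Nkg7 encodes a membrane protein of cytotoxic granules needed for efficient degranulation.

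The treated T cell library held 18463944 counts and the PBS one 18649824, while the DC libraries held 14056428 when treated and 23797357 with PBS. The T cell markers were present in the T cell libraries, with Cd3d, Cd3e and Cd3g summing to 5909 CPM (counts scaled to the library total) in treated and 7027 CPM in PBS T cells, and Cd8a and Cd8b1 to 5074 CPM in treated and 4434 CPM in PBS T cells. The 3 CD4 T cell markers summed to 21.9 CPM in treated and 18.98 CPM in PBS T cells, with Cd4 higher, Foxp3 lower and Cd40lg not called. In the DC libraries the DC integrin gene Itgax had 252 CPM in treated and 167 CPM in PBS cells. The DC-defining Zbtb46 and Flt3 had 4.06 and 4.91 CPM in treated DCs and 0.378 and 0.672 CPM in PBS DCs. Over the 10 DC markers 3 were higher in the treated library (Zbtb46, Flt3 and Clec9a) and 5 lower (H2-Ab1, Cd74, Cd209a, Ccr7 and Batf3), and they summed to 8226 CPM in treated and 60848 CPM in PBS DCs, most of it H2-Ab1. Many well-counted genes were at 0 in the other library of the same cell type. Of 7856 genes with at least 100 counts in PBS DCs, 942 were at 0 in treated DCs, and of 6475 such genes in treated DCs, 213 were at 0 in PBS DCs. In T cells this held for 342 of 8606 genes counted in the PBS library and for 104 of 8219 counted in the treated one.

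A run of 5 receptor genes lies side by side on chromosome 6 (GRCm39 positions as listed with the counts), within 101069 bases from 129554868 to 129655936. The order of listed genes there was Klre1, Klrd1, Klrk1, Klrc3, Klrc2 and Klrc1, so that 5 of the 6 are members. Klrg1 (122247555 to 122259841) and Klrb1c (128755448 to 128766178) lie elsewhere on the same chromosome, and Nkg7 (43086497 to 43087673) and Ncr1 (4340723 to 4348163) on chromosome 7. Klrb1c overlaps 1 other listed gene, Gm44511, on the same strand, so reads of the pair may be shared.

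Promoter sequences from RefSeq (build GRCm38.p6, 250 bases before to 50 after a start) were matched by symbol for 7 of the 9 genes, at 10 starts. A set of 5 motifs was searched on both strands. The hexamer TGTGGT, the core bound by RUNX factors, occurred at 9 of these 10 starts and in 7 of the 7 genes, and 16.8% of all 32851 promoters of that length hold it, or 18.9% of 27025 genes when any start counts. The T-box hexamer AGGTGT was in 1 of the 7 genes, Nkg7, against 15.7% of all genes when any start counts, and the ETS hexamer AGGAAG in 3 of 7, against 38.4%. The STAT motif TTCNNNGAA was in 1 of 7, Nkg7, against 9.55%, and the interferon-response element, searched as a pair of spaced GAAA repeats, in 0 of 7, against 3.99%. A match is a run of letters and not a shown binding site. The 4 promoters below are those of the most abundant member in T cells, of NKG2D, and of the neighbouring paralogs Klrc1 and Klrc2, whose levels lay far apart. Capitals mark the RUNX hexamer on either strand and, in Nkg7, also the T-box hexamer AGGTGT.
Nkg7, chr7:43436888-43437187, plus strand: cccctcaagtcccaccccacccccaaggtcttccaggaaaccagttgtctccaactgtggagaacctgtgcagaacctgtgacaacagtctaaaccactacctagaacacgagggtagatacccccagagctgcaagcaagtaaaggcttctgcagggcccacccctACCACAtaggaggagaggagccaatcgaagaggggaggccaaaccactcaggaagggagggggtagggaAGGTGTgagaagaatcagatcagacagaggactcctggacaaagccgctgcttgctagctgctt
Klrk1, chr6:129623815-129624114, minus strand: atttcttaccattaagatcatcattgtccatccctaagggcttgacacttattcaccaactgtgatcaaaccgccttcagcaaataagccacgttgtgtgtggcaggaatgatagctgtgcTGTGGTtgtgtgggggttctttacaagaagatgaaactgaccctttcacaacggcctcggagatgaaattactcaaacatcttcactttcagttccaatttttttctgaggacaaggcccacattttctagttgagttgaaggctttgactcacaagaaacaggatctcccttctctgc
Klrc1, chr6:129678924-129679223, minus strand: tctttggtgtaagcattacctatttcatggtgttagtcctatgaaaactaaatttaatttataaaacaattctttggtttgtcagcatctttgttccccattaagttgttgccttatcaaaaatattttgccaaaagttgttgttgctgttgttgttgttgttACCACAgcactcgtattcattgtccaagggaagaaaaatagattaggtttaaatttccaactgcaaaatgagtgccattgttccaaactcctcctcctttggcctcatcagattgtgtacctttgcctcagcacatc
Klrc2, chr6:129660547-129660846, minus strand: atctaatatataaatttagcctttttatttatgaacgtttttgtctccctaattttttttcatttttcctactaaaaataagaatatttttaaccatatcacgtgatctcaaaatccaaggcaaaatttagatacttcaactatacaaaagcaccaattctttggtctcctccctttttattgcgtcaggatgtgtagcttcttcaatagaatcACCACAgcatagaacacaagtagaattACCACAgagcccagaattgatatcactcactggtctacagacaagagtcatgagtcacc

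In T cells the members spanned the whole range of expression, with Nkg7 at the top and Ncr1 at 0. Levels are compared between genes as deposited FPKM, which is scaled to gene length and library size. Nkg7 (ENSMUSG00000004612) had 14819 FPKM in treated and 17872 FPKM in PBS T cells, rank 1 of all listed genes in both libraries. It took 1.35% of all counts in treated and 1.63% in PBS T cells. Klrd1 (ENSMUSG00000030165) followed with 1071 FPKM in treated and 1172 FPKM in PBS T cells, rank 45 in the treated and 49 in the PBS library. Klrc1 came next with 417 FPKM in treated and 319.7 FPKM in PBS T cells, then Klrk1 with 179 FPKM in treated and 155 FPKM in PBS T cells. Klre1, which encodes NKG2I, a partner of the KLRI receptors in rodents, had 103 FPKM in treated and 125 FPKM in PBS T cells. Klrg1, an inhibitory receptor for cadherins that marks late effector cells, was scarcer at 16.7 FPKM in treated and 13.6 FPKM in PBS T cells. Klrc2 had 1.45 FPKM in treated and 3.85 FPKM in PBS T cells, and Klrb1c was listed at 0 in treated and at 2.54 FPKM in PBS T cells. The FPKM order of the 6 most abundant members was the same in both T cell libraries, and no replicate shows how far neighbours in that order can vary. The order also depends on the listed gene lengths, since by counts Klrk1 lay above Klrc1 in both T cell libraries.

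**Figure D1:**
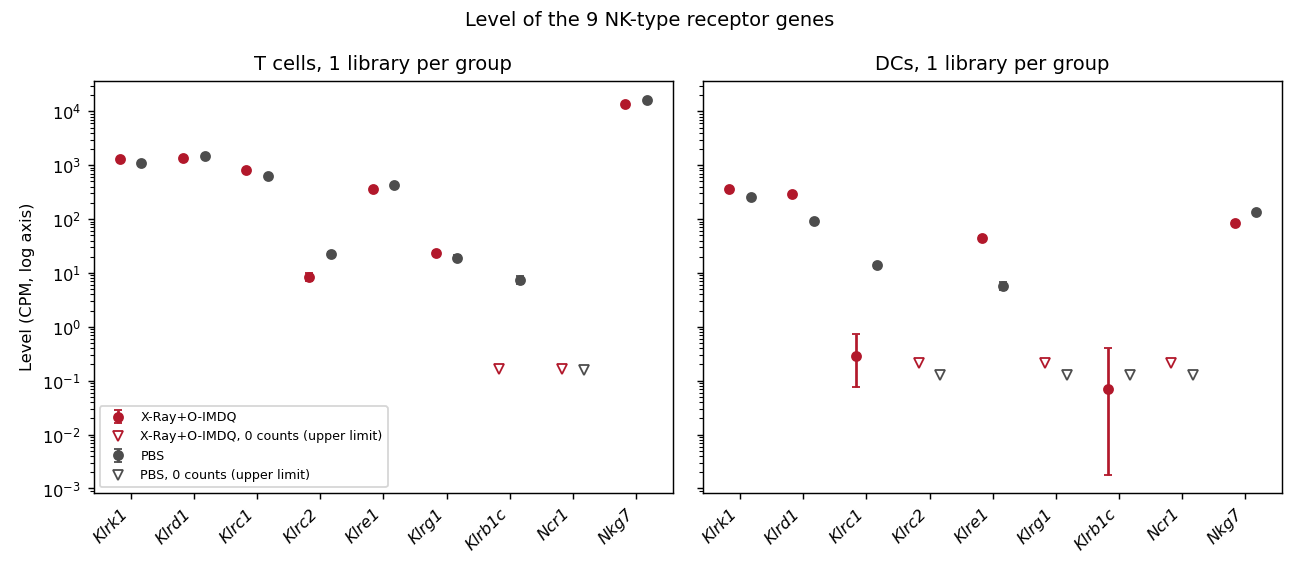
Level in CPM (log axis) of the 9 genes in T cells (left panel) and DCs (right panel), red for X-Ray+O-IMDQ and grey for PBS, 1 library per group. Points carry exact Poisson 95% intervals and open triangles mark the limit of 3 counts where a gene had 0. Nkg7 lies at 13544 CPM in treated and 16335 CPM in PBS T cells, and Ncr1 is at 0 in all 4 libraries.

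Within T cells, the abundant receptors differed little between the treated and the PBS library, and the members that changed were 2 scarce ones, both lower. Ratios are of TMM-scaled counts (a scaling that balances most genes between libraries) with an exact binomial 95% interval, and intervals and floors cover counting error only, since reads copied by PCR cannot be told from separate molecules. A gene was tested when either library held at least 20 counts, and called when the difference was at least 2-fold and its interval excluded 0. Of the 9 members 8 were tested, 0 were called higher and 2 lower, while 43.7% of all 11058 tested genes were called, 18.3% higher and 25.4% lower. The median log2 ratio was -0.23 over the 8 tested members and -0.07 over all tested genes. The share of called genes falls with abundance: 5.96% of the 302 genes with a mean of at least 10000 counts were called, 12.3% from 1000 counts up, 44.9% from 100 and 82.5% from 10.

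Klrc2, an activating partner of CD94, had 156 counts (8.45 CPM) in treated and 417 counts (22.4 CPM) in PBS T cells. It fell, with a log2 ratio of -1.43 (95% interval -1.71 to -1.16). Klrb1c, the NK1.1 gene, had 0 counts in treated and 140 counts (7.51 CPM) in PBS T cells. With its 0 set to the floor of 3 counts it was 47.1-fold lower in treated T cells, and the upper limit of its log2 ratio from counting error in both libraries was -5.24. Both genes sit in count ranges where calls were common, 44.9% in that of Klrc2 and 82.5% in that of Klrb1c. Klrc2 also shares sequence with its neighbours. In GENCODE M21 transcripts, 12.4% of its windows of 50 bases occur in Klrc1 too and 4.06% in Klrc3, while 36.6% of those of Klrc1 and 31.1% of those of Klrc3 occur in Klrc2, and the sources used here do not say how the authors assigned shared reads. Klrc3, which is no member, had 395 counts in treated and 34 counts in PBS T cells, a log2 ratio of 3.53 (3.02 to 4.08).

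Ncr1 had 0 counts in both T cell libraries, which allows up to 0.162 CPM in treated and 0.161 CPM in PBS T cells. NK markers that are no members summed to 126 CPM in treated and 149.9 CPM in PBS T cells over 10 genes, 3 of them higher and 2 lower. The lower ones were Itga2, with 46 counts in treated and 219 in PBS T cells, and Cma1, with 0 in treated and 388 in PBS T cells. Higher were Eomes, with 449 counts in treated and 201 in PBS T cells, and Klrb1a and Klrb1f. These last had 134 and 157 counts in treated T cells and 0 in PBS T cells. Txk, not called, took 71.4 CPM of the treated and 91.3 CPM of the PBS sum. Of the 10 genes, 3 were at 0 in treated and 4 in PBS T cells. Macrophage and monocyte markers summed to 2973 CPM in treated and 2167 CPM in PBS T cells, of which Ly6c2, which T cells also express, took 2591 CPM in treated and 1764 CPM in PBS T cells. None of these 10 was called higher and 3 were lower, Adgre1 with 0 counts in treated and 334 in PBS T cells, Csf1r (-1.12) and Mrc1 (-1.04). DC markers summed to 1716 CPM in treated and 1277 CPM in PBS T cells, of which Ccr7 took 1431 CPM in treated and 895 CPM in PBS T cells. Ccr7 was not called, and of the 10 markers 2 were higher (Xcr1 and Cd209a) and 2 lower (Zbtb46 and Flt3). Of the B cell markers Cd79b was higher, with 137 counts in treated and 10 in PBS T cells. The part of such cells in the values of Klrc2 and Klrb1c was not tested.

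The other 6 tested members were not called in T cells. Klrc1, the inhibitory partner of CD94, had 828 CPM in treated and 634 CPM in PBS T cells, a log2 ratio of 0.36 (0.32 to 0.39). Klrd1 had 1371 CPM in treated and 1502 CPM in PBS T cells, a ratio of -0.16 (-0.18 to -0.13) that was 0.12 when scaled to Cd3d, Cd3e and Cd3g. Klrk1 had 1286 CPM in treated and 1112 CPM in PBS T cells, a ratio of 0.18 (0.15 to 0.21). Each of these 3 receptor genes lay within 1.28-fold of its PBS level. Nkg7 had a log2 ratio of -0.30 (-0.31 to -0.29) and Klre1 one of -0.31 (-0.35 to -0.26), both slightly below PBS. Klrg1 had 23.6 CPM in treated and 19.2 CPM in PBS T cells, a ratio of 0.27 (0.06 to 0.47). Summed over the 9 members, T cells had 17422 CPM when treated and 20070 CPM with PBS, a log2 ratio of -0.23. Without Nkg7 that sum had a ratio of 0.027, and scaled to Cd3d, Cd3e and Cd3g in place of all genes it was 0.046, so its direction rests on Nkg7 and on the scaling. In bulk RNA, fewer cells carrying a receptor and less RNA per cell cannot be told apart.

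**Figure D2:**
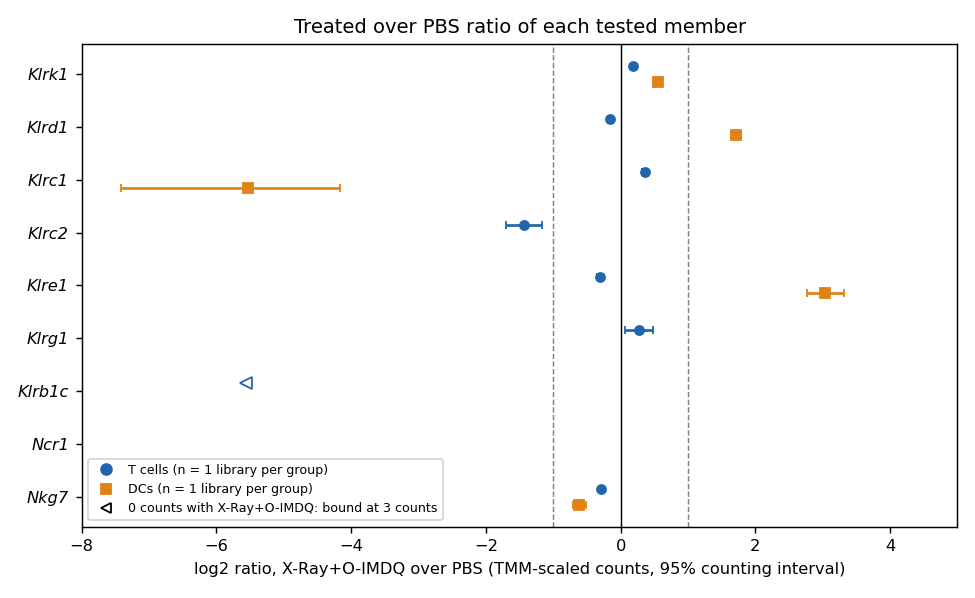
Log2 ratio of X-Ray+O-IMDQ over PBS for each tested member in T cells (blue circles) and DCs (orange squares), with 95% counting intervals and dashed lines at 2-fold. In T cells only Klrc2 (-1.43) and Klrb1c (open triangle, 0 counts when treated) lie outside the lines, while in DCs Klrd1 (1.72), Klre1 (3.04) and Klrc1 (-5.54) do.

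The transcript levels of the CD94 chains were set against each other within a library as a ratio of FPKM, which does not show which chains pair in a cell. Klrd1 over Klrc1 was 2.57 (95% interval 2.51 to 2.62) in treated and 3.67 (3.59 to 3.75) in PBS T cells. Klrc1 over Klrc2, the inhibitory over an activating chain, was 287 (245 to 338) in treated and 83.1 (75.4 to 91.9) in PBS T cells, and it rests on 2 genes that share the windows given above. In both T cell libraries the FPKM of Klrc1 was far above that of Klrc2. Klrc3 is not in this ratio and had 29.1 FPKM in treated and 2.48 FPKM in PBS T cells. The ratio therefore does not give the balance over all Klrc chains. Among the 8 receptors without Nkg7, Klrd1 made up 59.9% of summed FPKM in treated and 65.4% in PBS T cells, and Klrc1 23.3% in treated and 17.8% in PBS T cells. These shares and ratios depend on the listed gene lengths, 1281 bases for Klrd1, 1984 for Klrc1, 5812 for Klrc2 and 7183 for Klrk1. By counts Klrd1 and Klrk1 lay close in treated T cells, at 25323 and 23739. The intervals cover counting error and not the lengths.

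**Figure D3:**
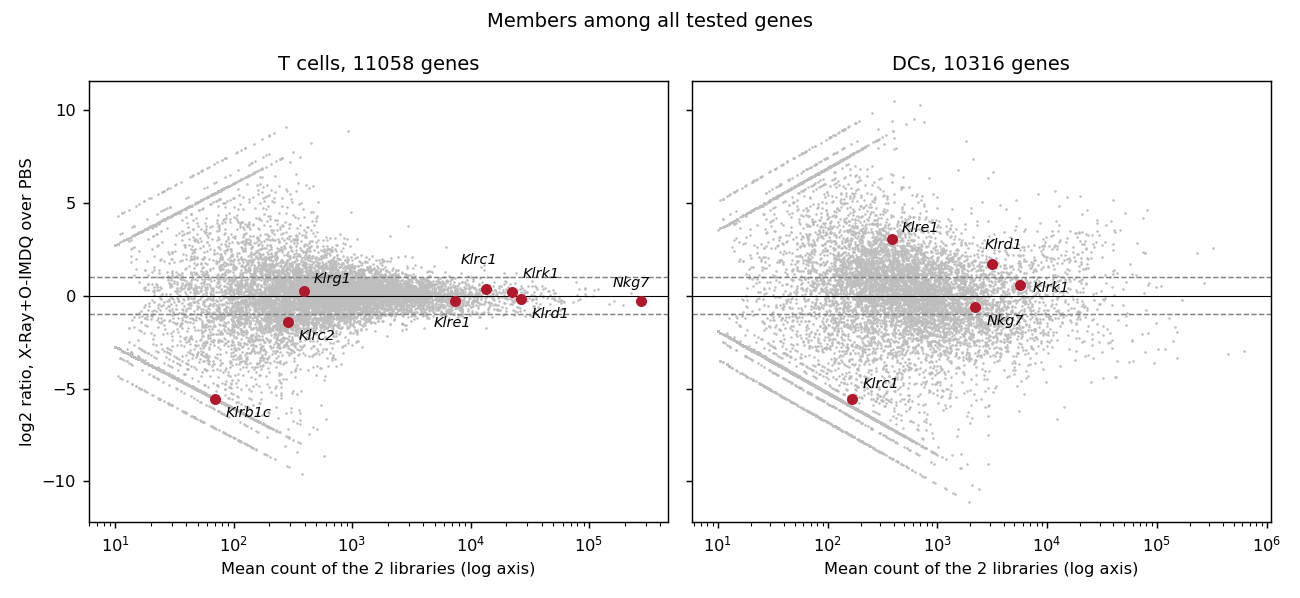
Log2 ratio of X-Ray+O-IMDQ over PBS against the mean count of the 2 libraries (log axis) for every tested gene (grey) and the tested members (red, named), in T cells (left) and DCs (right). Nkg7, Klrd1, Klrk1 and Klrc1 lie in the narrow right end of the T cell plot, where 5.96% of genes were called, and the DC plot is wide at all counts.

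In DCs, 5 members were tested and 3 changed: Klrd1 and Klre1 were higher in the treated library and Klrc1 was lower. Calls were the rule there, with 72.0% of all 10316 tested genes called, 30.2% higher and 41.8% lower, so the members' share is near this background. The median log2 ratio was 0.56 over the 5 tested members and -0.36 over all tested genes. Klrd1 (CD94) had 4116 counts (293 CPM) in treated and 2206 counts (92.7 CPM) in PBS DCs, a log2 ratio of 1.72 (1.64 to 1.79) or 3.29-fold. Klre1 (NKG2I) had 637 counts (45.3 CPM) in treated and 137 counts (5.76 CPM) in PBS DCs, a log2 ratio of 3.04 (2.77 to 3.31) or 8.20-fold. Klrc1 (NKG2A) was lower, with 4 counts in treated and 328 counts in PBS DCs, a log2 ratio of -5.54 (-7.42 to -4.17). Klrd1 over Klrc1 was thus 1594 (622 to 5852) in treated DCs on the FPKM scale, against 10.4 (9.27 to 11.7) in PBS DCs.

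Klrk1 (NKG2D) was the member with the most counts in DCs and was not called, at 368 CPM in treated and 259.9 CPM in PBS DCs, a log2 ratio of 0.56 (0.51 to 0.62). Nkg7 had 85.4 CPM in treated and 136 CPM in PBS DCs, a ratio of -0.61 (-0.71 to -0.52). The sum over members was 792 CPM in treated and 508 CPM in PBS DCs, a ratio of 0.70, and 1.06 once the median of all genes was set to 0. Of the members that define NK cells, Ncr1 had 0 counts in both DC libraries, and Klrb1c had 1 count in treated and 0 in PBS DCs. Klrg1 and Klrc2 had 0 counts in both as well. A count of 0 allows up to 0.213 CPM in treated and 0.126 CPM in PBS DCs.

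Markers of other cells were read beside these values. T cell markers in the DC libraries summed to 104 CPM in treated and 46.3 CPM in PBS DCs over 7 genes, 4 higher and 1 lower, with 2 of them at 0 in each library. The higher ones, with counts in treated and then PBS DCs, were Cd3d (812 and 434), Cd5 (278 and 1), Cd28 (224 and 5) and Cd6 (150 and 85). Cd3g was lower, with 1 count in treated and 576 in PBS DCs, and Cd3e and Cd247 had 0 in both. The CD8 gene Cd8b1 had 254 counts in treated and 517 in PBS DCs and was not called. The other CD8 gene, Cd8a, had 0 counts in treated and 1 in PBS DCs. NK markers that are no members summed to 15.01 CPM in treated and 31.4 CPM in PBS DCs over 10 genes, with 8 at 0 in treated and 7 at 0 in PBS DCs, among them Itga2 in both. Of the 2 NK markers tested, Eomes was higher, with 135 counts in treated and 0 in PBS DCs. Klra4 was lower, with 76 counts in treated and 738 in PBS DCs, and took 31.0 CPM of the PBS sum. Macrophage and monocyte markers summed to 2115 CPM in treated and 8067 CPM in PBS DCs over 10 genes, 5 of them lower. Neutrophil markers summed to 91.7 CPM in treated and 22.1 CPM in PBS DCs over 5 genes, 2 higher and 1 lower. S100a8 was higher, with 1009 counts in treated and 90 in PBS DCs, as was Cxcr2, with 246 in treated and 0 in PBS DCs. Csf3r was lower, with 34 counts in treated and 436 in PBS DCs, and S100a9 and Ly6g were at 0 in both. The B cell marker Cd79b was lower, at 12.6 CPM in treated and 41.4 CPM in PBS DCs, with the other 4 B cell markers at 0 in both. The part of these cells in the members' values was not tested.

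Set against the T cell libraries, the members in DCs did not keep the proportions they had in T cells. The tables were made separately, so these are levels side by side. Summed Cd3d, Cd3e and Cd3g were 102-fold higher in T cells than in DCs among treated libraries and 166-fold higher among PBS libraries. Nkg7 stood in a like relation, at 159-fold among treated and 120.2-fold among PBS libraries. Klrk1 was only 3.49-fold higher in T cells than in DCs among treated and 4.28-fold among PBS libraries. Klrd1 was 4.68-fold higher in T cells among treated and 16.2-fold among PBS libraries. Klre1 was 7.95-fold higher among treated and 76.0-fold among PBS libraries, and Klrc1 2909-fold among treated and 46.0-fold among PBS libraries. Relative to the summed CD3 genes, Klrk1, Klrd1 and Klre1 stood higher in the DC libraries than in the T cell libraries. That sum rests on different genes in the 2 DC libraries. In treated DCs Cd3d had 812 counts, Cd3g 1 and Cd3e 0, and in PBS DCs Cd3d had 434, Cd3g 576 and Cd3e 0. The fold values of the sum therefore do not hold for each CD3 gene. In DCs the FPKM order differed between groups: Klrd1 was highest when treated, at 229 FPKM, ahead of Nkg7 at 93.4 FPKM, while with PBS Nkg7 was highest at 149 FPKM, ahead of Klrd1 at 72.4 FPKM.

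**Figure D4:**
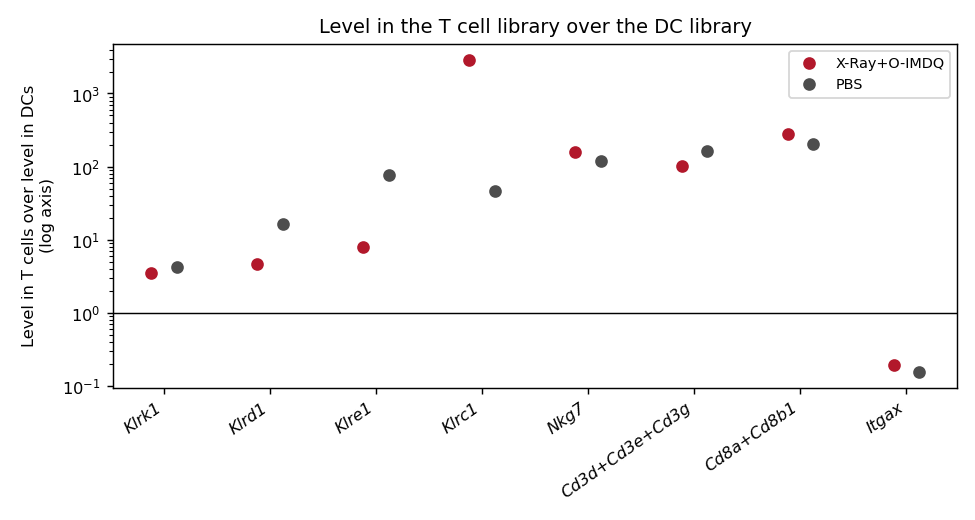
Level in the T cell library over that in the DC library (log axis), among treated libraries (red) and PBS libraries (grey), for the 5 members counted in all 4 libraries and for CD3, CD8 and Itgax genes. Klrk1 lies at 3.49 among treated and 4.28 among PBS libraries, far below the summed CD3 genes at 102 among treated and 166 among PBS libraries.

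Genes that work with the members were read as lists, beginning with the adaptors. Over all tested genes 43.7% were called in T cells, 18.3% higher and 25.4% lower. In DCs 72.0% were called, 30.2% higher and 41.8% lower. In T cells 1 of 17 tested adaptor and signalling genes was higher and 4 were lower, and their median log2 ratio was -0.08. Hcst (DAP10), the main adaptor of NKG2D, fell by 1.14 on the log2 scale, with 516 CPM in treated and 1116 CPM in PBS T cells. Fcer1g, an adaptor of NK1.1 and NKp46, fell by 1.08, with 119 CPM in treated and 248 CPM in PBS T cells. Syk and Plcg2, a kinase and a phospholipase downstream of such adaptors, had 23 and 0 counts in treated and 238 and 32 counts in PBS T cells, both lower. The Src-family kinase Fyn was higher, at 1.09. Tyrobp (DAP12) had a ratio of -0.56 and was not called, and neither were the abundant Lck (0.47), Lat (0.52) and Zap70 (-0.03). In DCs 5 of 16 such genes were higher and 4 lower (median 0.37). There Hcst was higher, with 98.0 CPM in treated and 42.0 CPM in PBS DCs, as were Fyn, Vav1, Grb2 and Sh2d1b1, while Lck, Zap70, Lat and Lat2 were lower. Tyrobp (-0.21), Fcer1g (0.58) and the phosphatase gene Ptpn6 (0.73) were not called in DCs. Thus Hcst and Fcer1g had log2 ratios of -1.14 and -1.08 in T cells and of 1.28 and 0.58 in DCs, and the difference between cell types was not tested.

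Of 18 ligand genes looked up by symbol, 14 were found. Of these, 2 of 8 tested were higher and 2 lower in T cells, and 3 of 7 higher and 2 lower in DCs, with medians of 0.55 and 0.08. Among all tested genes 43.7% were called in T cells and 72.0% in DCs. H2-T23, the Qa-1 ligand of CD94, had 432 CPM in treated and 308 CPM in PBS T cells, a ratio of 0.46, and 60.5 CPM in treated and 59.7 CPM in PBS DCs, a ratio of 0.08. The NKG2D ligands Raet1d and H60b were higher in treated T cells, at 1.98 and 1.63, from few counts. Both lie within the listed span of Raet1e on the same strand, so reads may be shared among these genes. The MULT1 gene Ulbp1 had a ratio of 0.64 in T cells and was not called. In DCs Raet1d had a ratio of -0.48, Raet1e fell by 2.38 and Ulbp1 had 0 counts in treated and 117 in PBS cells, also lower. Cdh1, the E-cadherin ligand of KLRG1, was higher in DCs at 1.05, and Cdh2 was lower in T cells with 0 counts in treated and 42 in PBS cells. Of the Clec2 ligands of Klrb1-type receptors, Clec2d was higher in DCs (5.41) and not called in T cells (-0.86). Clec2i had 72 counts in treated and 0 in PBS DCs, but 6 counts in treated and 266 in PBS T cells.

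Among other NK-type receptors in T cells, as among the members, most of the called genes were scarce. Of 22 tested, 5 were higher and 4 lower (median -0.11), where 43.7% of all tested genes were called. Several abundant ones were not called: Tigit, an inhibitory receptor, had 792 CPM in treated and 859.7 CPM in PBS T cells, Cd96 had 223 CPM in treated and 170.0 CPM in PBS T cells, Slamf7 had 172 CPM in treated and 139.9 CPM in PBS T cells, and Cd160 had 178 CPM in treated and 87.8 CPM in PBS T cells with a ratio just under the threshold at 0.99. The called genes had few counts, Klri2 apart, which had 726 counts in treated and 3197 in PBS T cells and fell by 2.15. Klra1, Klra6, Klrb1a, Klrb1f and Klrc3 were higher and Klra7, Klra17 and Klrb1b lower, with 444 or fewer counts in each library. In DCs 6 of 14 were higher and 6 lower (median 0.04), where 72.0% of all tested genes were called. Klri1 and Klri2, the inhibitory and activating partners of NKG2I in rodents, moved apart there: Klri1 had 1 count in treated and 764 in PBS DCs, and Klri2 had 264 in treated and 188 in PBS DCs. The inhibitory Klrb1b was the most counted in DCs, at 174 CPM in treated and 68.9 CPM in PBS cells, and was higher at 1.39. Slamf7 came next in PBS DCs, with 65.0 CPM in treated and 64.4 CPM in PBS DCs, and was not called. Klra2 came next in treated DCs, at 86.9 CPM against 31.9 CPM in PBS DCs, and was higher at 1.51. Klra3, Klra17 and Crtam were higher from 0 counts in PBS DCs. Klra4, Cd226, Cd244a, Slamf6 and Tigit were lower.

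Killer effector genes, among them granzymes and perforin, the cargo of cytotoxic granules, were read next. In T cells 2 of 13 tested were higher and 0 lower, with a median log2 ratio of 0.51. Most of the 13 had over 1000 counts, a range in which 12.3% of all genes were called (5.96% from 10000 up). Gzma had 739 CPM in treated and 359 CPM in PBS T cells, and Gzmm had 524 counts in treated and 83 in PBS T cells. Gzmb (0.42), Prf1 (0.29), Srgn (0.41) and Ctsw (-0.13) were not called. In DCs 4 of 8 were higher and 3 lower (median 0.37), where 72.0% of all tested genes were called. The granzyme genes Gzma, Gzmb and Gzmc and the cytokine gene Ifng were higher there, and Lamp1, Serpinb9 and Ctsw lower, while Srgn (-0.25) was not called. Prf1, Gzmk and Gzmm had 0 counts in both DC libraries. Fasl had 0 counts in treated and 1 in PBS DCs, and Tnfsf10 had 1 in treated and 0 in PBS DCs.

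**Figure D5:**
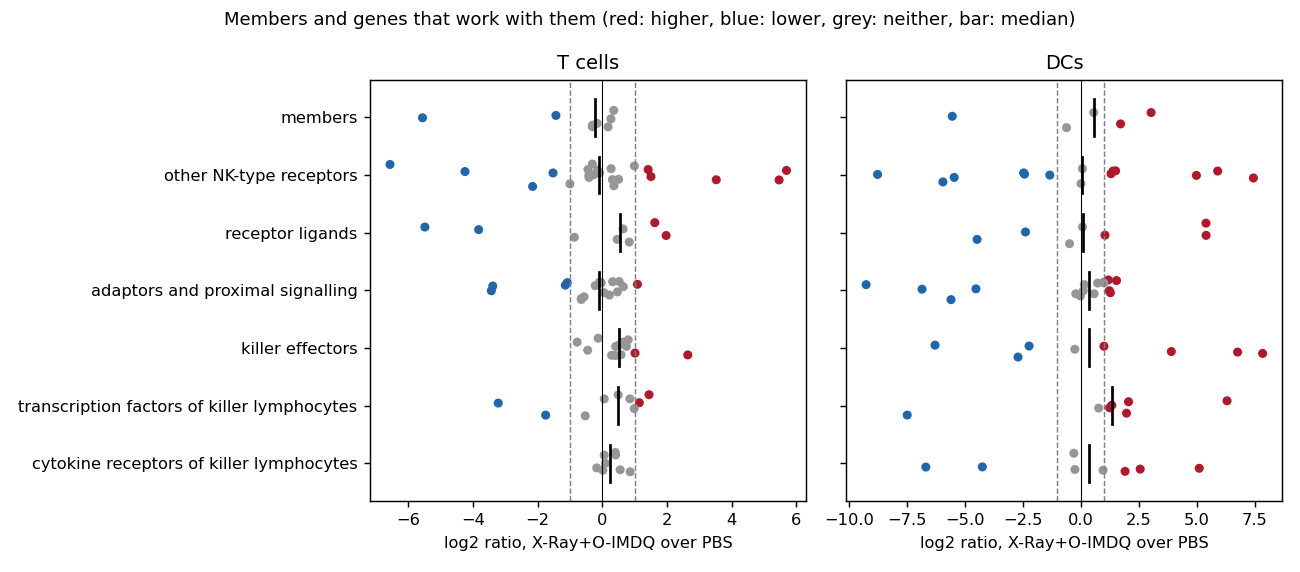
Log2 ratio of X-Ray+O-IMDQ over PBS for each tested gene of 7 lists in T cells (left) and DCs (right), red for called higher, blue for called lower, grey for neither, bars for list medians, dashed lines at 2-fold. Members have medians of -0.23 in T cells and 0.56 in DCs, and the abundant members in T cells cluster near 0.

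The genes whose pattern over the 4 libraries was nearest to that of the summed members were Gldc, Bcl11b, Aqr, Xlr4c and Bdh1, out of 10538 genes. Likeness was the Euclidean distance of centred log2(CPM + 1) values, which was 0.30 for Gldc, 0.40 for Bcl11b, 0.41 for Aqr, 0.44 for Xlr4c and 0.45 for Bdh1. Bcl11b encodes a transcription factor of the T cell lineage. In DCs these genes were near 0, at most 0.945 on that scale in treated DCs (Gldc) and 0.548 in PBS DCs (Aqr). The summed members were at 9.63 in treated and 8.99 in PBS DCs, so the added 1 CPM shapes the gap of these genes. With 4 libraries this ranking mostly reflects a like gap between T cells and DCs, and the sum it is set against is mostly Nkg7 in T cells, while Klrk1 is its largest part in DCs.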

How the data were processed

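RNA from tumour DCs and CD3+ T cells was sequenced by BGI, per the labels' protocols. Per the submitters' processing notes the build was GRCm39 and the tools were RSEM 1.2.12, HISAT2 2.0.4, R 3.3.1 and DESeq2 1.24.0, with no roles stated. Per the file headers, the deposited tables hold read counts per gene, not normalized, and FPKM, which equals counts scaled by listed length and column total within a relative difference of 2.04e-07. Columns were tied to samples through the read file names in the descriptions, whose numbers differ from the titles in 3 of 4 samples. A further 4 columns match no sample and were not used.

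Counts were scaled by TMM (edgeR 4.0.16, R 4.3.3) within each cell type. Ratios, intervals (Python 3.11.15, scipy 1.17.1), the floor of 3 counts and calls are as described above, and the calls were tested on data simulated with counting error alone. DESeq2 1.42.0 size factors were one alternative. Named genes were all members, of each list the 3 with the most counts and those called, and the 5 nearest in pattern. A few more of each list were named after their values were seen. The members and lists were chosen with earlier results of these data known. Motifs were chosen after the members' levels were seen.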

Additional observations from a re-analysis of the deposited data

Results flagged for a closer look

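Klrd1, Klrc1 and Klre1 differed from PBS in opposite directions in the DC and the T cell comparison, each with counting intervals that exclude 0 under TMM scaling. Klrd1 had a log2 ratio of 1.72 in DCs and -0.16 in T cells, a difference of 1.88. Klrc1 had a ratio of -5.54 in DCs and 0.36 in T cells, a difference of -5.90. Klre1 had a ratio of 3.04 in DCs and -0.31 in T cells, a difference of 3.34. Scaled to Cd3d, Cd3e and Cd3g, Klrd1 in T cells had a ratio of 0.12 (0.094 to 0.14), the direction it had in DCs, and Klre1 one of -0.030 (-0.077 to 0.017), an interval that includes 0. With 1 library per group these differences were not tested, and none of the 3 genes was called in T cells.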

How the results depend on the processing

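Every group had 1 library, so no library could be left out. No paired analysis was possible because each group had 1 library, which leaves no spread to fit. The count of members called in DCs ranged from 2 to 4 around 3 over the alternatives, and the count in T cells was 1 in place of 2 with at least 20 counts in both libraries, which leaves Klrc2, and 1 with a 4-fold threshold, which leaves Klrb1c. The summed members in DCs passed 2-fold when the median of all genes was set to 0 (1.06). The T cell sum changed sign to 0.046 when scaled to Cd3d, Cd3e and Cd3g and to 0.027 without Nkg7, an alternative chosen after seeing the data, and Klrd1 in T cells to 0.12 under the CD3 scaling. Over the scaling and pseudocount alternatives, all 35 values of single members in DCs and the other 71 in T cells kept their direction and their side of the threshold. Intervals cover counting error, and differences between animals were not measured.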

Other observations

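Transcription factors and cytokine receptors of killer lymphocytes were read in the same way. In T cells 2 of 9 tested factors were higher and 2 lower, where 43.7% of all tested genes were called, and the median log2 ratio was 0.50. Eomes and Prdm1, factors of effector T cells, were higher at 1.15 and 1.45, and Zfp683, a factor of tissue-resident T cells, and Tox had ratios of -3.21 and -1.75, both lower. Tbx21, which encodes T-bet, had 181 CPM in treated and 126 CPM in PBS T cells (0.50), Id2 634 CPM in treated and 596 CPM in PBS T cells (0.063), Nfil3 105 CPM in treated and 56.8 CPM in PBS T cells (0.86), and Runx3 a ratio of -0.53, and none of these was called. In DCs 5 of 7 factors were higher and 1 lower (median 1.34), where 72.0% of all tested genes were called, 30.2% higher and 41.8% lower. Id2, Nfil3, Runx3 and Zeb2 were higher at 1.98, 1.34, 1.25 and 2.06, Eomes was higher from 0 counts in PBS DCs, and Prdm1 was lower.

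Of the 8 cytokine receptor genes, 0 were called in T cells in either direction, with a median of 0.25. Most of them had over 1000 counts, a range in which 12.3% of all genes were called (5.96% from 10000 up), and no p-value exists at 1 library a group. Il2rb, the shared beta chain for IL-2 and IL-15, had 1303 CPM in treated and 1261 CPM in PBS T cells, a ratio of 0.020. Il2rg had a ratio of 0.55 and Il18rap one of -0.17. In DCs 3 were higher and 2 lower (median 0.36), where 72.0% of all tested genes were called. The most counted there, Il2rg (0.97), Il21r (-0.25) and Il15ra (-0.29), were not called. Il2rb had 2 counts in treated and 361 in PBS DCs and Il12rb2 had 0 in treated and 100 in PBS DCs, both lower, while Il18r1, Il18rap and Il12rb1 were higher.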
